A study of Danio rerio with 6 samples.

Results

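CTCF binding was examined on the long-arm region of zebrafish chromosome 4, taken as every peak of that chromosome whose listed start lies at or beyond 30000000 bp of the GRCz10 (danRer10) assembly. The region held 1314 of the 162429 peaks in 6 libraries. It was followed to the end of its last listed peak, at 76621715 bp, which makes it 46.6 Mb long. The files give no centromere, so the region is defined by position alone. Peaks of the replicates of a group that overlapped by at least 1 bp were merged, and a site is a merged region that both replicates supported. This gave 8 of 844 ctcf-/- sites, 123 of 23959 WT sites at 48 hpf and 124 of 22498 WT sites at 24 hpf on the long arm.

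The study profiled whole embryos by ChIPmentation, which is ChIP-seq with adapters inserted by Tn5 transposase while the precipitated chromatin is still on the beads. It comprised 3 groups with 2 libraries each, namely ctcf-/- embryos at 48 hpf, WT embryos at 48 hpf and WT embryos at 24 hpf, from AB/Tübingen fish. The ctcf-/- embryos were zygotic mutants carrying a CRISPR/Cas9 deletion with a premature stop codon, whose predicted truncated product would keep a single zinc finger. The study's western blot at 48 hpf found no such truncated protein, and the study proposes that it is degraded. The embryos were born to heterozygous parents and therefore supplied with maternal CTCF early in development. By immunofluorescence, the study no longer saw this maternal protein in mutant nuclei at 24 hpf. The methods describe chromatin of pooled embryos for the 24 hpf stage, name no pool size for 48 hpf, and give an antibody specific for zebrafish CTCF, and peaks were called in each library on its own. No ctcf-/- library of 24 hpf was analysed here, so genotype was compared at 48 hpf and stage in WT embryos only.

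CTCF is a zinc finger protein that binds DNA, acts as an insulator and halts the extrusion of chromatin loops by cohesin, which is why it is found at borders of topologically associating domains (TADs). The long arm of zebrafish chromosome 4 is known as a largely heterochromatic and late-replicating arm. It is rich in repeats, in clusters of small RNA genes such as 5S rRNA and tRNA genes, and in large families of zinc finger and NLR immune receptor genes, with few genes that have a counterpart in other vertebrates.

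The long arm carried fewer CTCF peaks per Mb than any other chromosome in every library. The ctcf-/- lists had 48 and 14 peaks there, against 188 and 241 in the WT 48 hpf lists, and the WT 24 hpf lists had 630 and 193. Per Mb, the 24 other chromosomes together exceeded the long arm 1.87 and 4.06 times in the ctcf-/- lists, 5.76 and 4.79 times in the WT 48 hpf lists and 3.73 and 4.75 times in the WT 24 hpf lists. The lower density was thus present in all 6 lists, and the difference was smallest in ctcf-/- replicate 1. The densities are per Mb of assembled sequence up to the last listed peak. How much of it could receive a peak was not measured, and the treatment of reads that align to several places is not given in the sources used here.

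In that replicate the long arm had 1.03 peaks per Mb, against 1.44 on chromosome 12, the lowest of the others. The second ctcf-/- list had 0.300 on the long arm and 0.984 on chromosome 9. In the WT 48 hpf lists, the long arm had 4.03 and 5.17 peaks per Mb, and chromosome 14, again the lowest of the others, had 21.4 and 22.6. In the WT 24 hpf lists it had 13.5 and 4.14 peaks per Mb, against 45.7 on chromosome 12 and 17.5 on chromosome 9. In no list did 1 of the 24 other chromosomes fall to the level of the long arm.

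**Figure D1:**
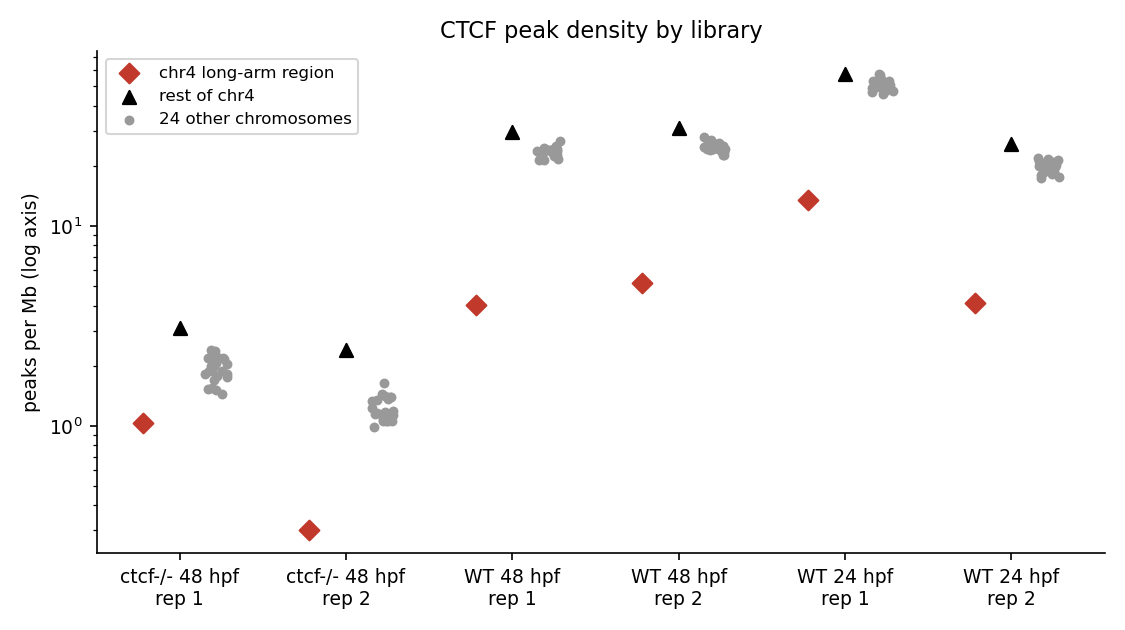
CTCF peaks per Mb in each of the 6 libraries on a log axis, for the long-arm region of chromosome 4, the rest of chromosome 4 and each of the 24 other chromosomes. The long arm lies below every other chromosome in each library, with 0.300 to 1.03 peaks per Mb in ctcf-/- and 4.03 to 5.17 in WT embryos at 48 hpf.

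Taken as a whole, the first 30 Mb of the same chromosome did not share this. They held 3.10 and 2.40 peaks per Mb in the ctcf-/- lists, 29.6 and 30.8 in the WT 48 hpf lists, and 57.8 and 25.8 in the WT 24 hpf lists, each above the pooled value of the other chromosomes in the same list. Site numbers fell before 30 Mb, however. In windows of 5 Mb, WT 48 hpf sites numbered 152, 153, 128, 126, 86 and 71, against a median of 87 on the other chromosomes. WT 24 hpf sites numbered 160, 150, 128, 110, 69 and 62, against a median of 80. The last 1 Mb before the region held 5 WT 48 hpf and 8 WT 24 hpf sites. The mean difference over the 6 libraries was −2.46 ± 0.53 (SD) on the log2 scale between the long arm and the rest of chromosome 4, and −1.98 ± 0.57 between the long arm and the other chromosomes. Both were negative in 6 of 6 libraries. An exact two-sided sign-flip permutation test gave p = 0.0312 for each, the smallest p that 6 libraries allow. After Benjamini-Hochberg adjustment over the 6 long-arm measures tested in this way, p was 0.0938 for each, which did not pass 0.05. The replicates were not stated to be separate clutches, so these p-values measure the spread between libraries, which may be technical.

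Counted by sites of both replicates, the long arm was again the lowest. The long arm had 0.172 ctcf-/- sites per Mb, 2.64 WT 48 hpf sites per Mb and 2.66 WT 24 hpf sites per Mb. The lowest values on the other chromosomes were 0.374 for ctcf-/- sites on chromosome 1, 16.1 for WT 48 hpf sites on chromosome 14 and 14.8 for WT 24 hpf sites on chromosome 14.

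The position set as the start of the region fell between peaks that lay closest together in the WT 24 hpf lists. In the ctcf-/- lists, the last peak below it began at 28917001 and 28627335 bp and the first above it at 30754421 and 36113653 bp. In the WT 48 hpf lists these starts were 29675188 and 29839423 bp below, and 30391107 and 30336877 bp above. In the WT 24 hpf lists they were 29889069 and 29967387 bp below, and 30091865 and 30200300 bp above. The peaks next to the limit had a fold enrichment of 5.64 to 9.86 above it and 6.38 to 11.8 below it.

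Binding was spread unevenly along the long arm. In windows of 5 Mb from the start of the region, WT embryos at 48 hpf had 10, 8, 5, 9, 6, 7, 3, 24 and 35 sites, and a further 16 in the shorter last stretch. WT embryos at 24 hpf had 12, 7, 4, 10, 6, 7, 5, 21 and 39 sites, and 13 in the last stretch. The ctcf-/- embryos had 0, 3, 0, 0, 2, 1, 0, 1 and 1 sites, and 0 in the last stretch. The fewest WT sites at 48 hpf lay between 60 and 65 Mb and the most between 70 and 75 Mb, so that the end of the arm held the majority of them at both stages.

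In WT embryos, even the richest full window of the arm was below the poorest one elsewhere. Over 242 windows of 5 Mb on the other chromosomes, WT 48 hpf sites numbered 38 at the lowest and 87 at the median, and all 9 full windows of the long arm had fewer than that lowest value. WT 24 hpf sites numbered 41 at the lowest and 80 at the median elsewhere, again above all 9. This did not hold for ctcf-/- sites, which are few in either place, with 3 in the richest window of the arm and 177 of the 242 other windows at or below that number. The shorter last stretch of the arm, from 75 to 76.6 Mb, was not among the full windows. It held 16 WT 48 hpf and 13 WT 24 hpf sites. Per Mb it lay above the poorest window elsewhere at 48 hpf, but not at 24 hpf. In windows of 1 Mb, 12 of 46 on the long arm (26.1%) had no WT 48 hpf site and 9 of 46 (19.6%) had no WT 24 hpf site. In WT embryos none of 1252 windows on the other chromosomes was empty at either stage. For ctcf-/- sites, 40 of 46 windows on the long arm (87.0%) and 791 of 1252 on the other chromosomes (63.2%) were empty.

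**Figure D2:**
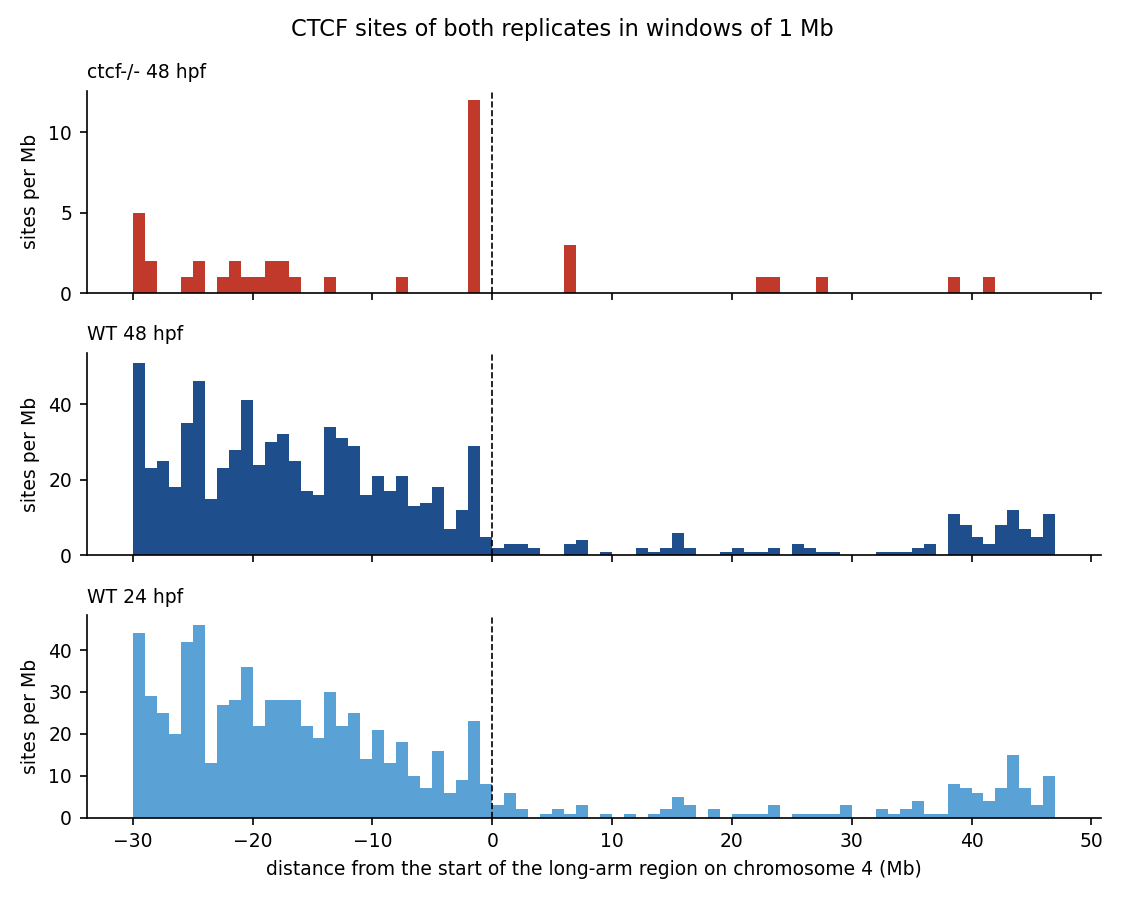
Number of CTCF sites found in both replicates in windows of 1 Mb along chromosome 4, plotted by distance from the start of the long-arm region (dashed line), for ctcf-/- embryos at 48 hpf (top), WT embryos at 48 hpf (middle) and WT embryos at 24 hpf (bottom). In WT embryos site numbers are low after the dashed line and higher again near the end of the chromosome, where the fullest window has 12 sites at 48 hpf and 15 at 24 hpf.

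A split at 65 Mb, chosen after these windows had been seen, describes the 2 stretches. From 65 Mb to the end there were 75 WT 48 hpf sites, or 6.45 per Mb, against 48 sites, or 1.37 per Mb, between 30 and 65 Mb. WT 24 hpf sites numbered 73 from 65 Mb onwards and 51 before it. The ctcf-/- peaks were distributed otherwise, with 11 and 5 from 65 Mb onwards and 37 and 9 before it. Per Mb these were 0.947 and 0.430 from 65 Mb onwards, and 1.06 and 0.257 before it. For every 100 peaks of the WT 48 hpf list of the same replicate number, the ctcf-/- lists had 10 and 4.24 peaks from 65 Mb onwards, and 47.4 and 7.32 before it. Over the whole long arm they had 25.5 and 5.81. WT peaks are the divisor and the split was chosen after WT sites were seen, so a higher ratio before 65 Mb was partly preset. On the other chromosomes these ratios were 8.30 and 4.92, and on the rest of chromosome 4 they were 10.5 and 7.78. Between 30 and 65 Mb, replicate 1 thus lay far above both. Replicate 2, matched in this way, lay above the other chromosomes there but below the rest of chromosome 4. The labels state no such pairing, and the WT 48 hpf lists had 78 and 123 peaks in this stretch. Set against the 78 of WT 48 hpf replicate 1, the 9 peaks of ctcf-/- replicate 2 lay above the rest of chromosome 4 as well, where that ratio was 8.10. The place of replicate 2 relative to the rest of chromosome 4 therefore depended on the WT list used. Of the 93 and 72 ctcf-/- peaks on the rest of chromosome 4, 22 and 12 lay within a single window of 1 Mb, described below.

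Consecutive WT 48 hpf sites on the long arm lay a median of 123 kb apart, against 31.8 kb on the other chromosomes. The longest stretch without a site ran from 58565157 to 62813567 bp, or 4248 kb, and contained 11 WT 48 hpf peaks of single replicates, 4 WT 24 hpf sites and 5 ctcf-/- peaks. The next were a stretch of 2756 kb from 46921716 to 49678179 bp and a stretch of 2579 kb from 39829843 to 42408420 bp. In all, 9 stretches of the long arm were longer than the longest one on any other chromosome, 1255 kb on chromosome 6. Close pairs of sites were present as well, since 14 of 122 stretches between neighbours (11.5%) were under 10 kb, against 20.0% on the other chromosomes.

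Peaks of the long arm were then ranked within their own list by fold enrichment, because enrichment is not normalized between lists. Fold enrichment is the pileup of fragments at the summit over the local background, with 1 added to each. Where the background is low, it therefore lies well below the plain ratio. A percentile of 50 is the middle of a list. In the ctcf-/- lists the median peak of the long arm was at percentile 72.2 and 41.2, in the WT 48 hpf lists at 39.9 and 32.3, and in the WT 24 hpf lists at 46.7 and 38.4. It was below the median of the other chromosomes in 5 of 6 lists, and ctcf-/- replicate 1 was the exception. The mean difference was −5.08 ± 14.3 percentile points (SD, n = 6), p = 0.438 in the exact sign-flip permutation test and 0.438 after adjustment. Without ctcf-/- replicate 1 the mean difference was −10.6 points, with an adjusted exact p of 0.075, and without WT 48 hpf replicate 2 it was −2.50 points, with an adjusted exact p of 0.75. With every list shortened to its 1706 strongest peaks by −log10 q, it turned to 11.3 points (adjusted exact p = 0.438). The WT 48 hpf lists then kept 1 long-arm peak each and the WT 24 hpf lists 4 and 3, so these medians rested on very few peaks.

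The top decile of the lists contained few WT 48 hpf peaks of the long arm. These were 3 of 188 peaks (1.60%) and 3 of 241 peaks (1.24%), against 10.01% and 10.05% of the peaks of the other chromosomes. In the ctcf-/- lists they were 12 of 48 peaks (25%) and 1 of 14 (7.14%), and in the WT 24 hpf lists 43 of 630 (6.83%) and 4 of 193 (2.07%). The highest fold enrichment on the long arm was 20.3 and 20.7 in ctcf-/-, 27.8 and 24.4 in the WT 48 hpf lists, and 34.2 and 20.7 in WT at 24 hpf. These maxima all belonged to 1 site, which begins at 57548258 bp in WT at 48 hpf. The highest values on the other chromosomes were 35.9 and 29.6 in ctcf-/-, 36.2 and 32.9 in the WT 48 hpf lists, and 37.4 and 30.7 in WT at 24 hpf. The peak of 1 long-arm site therefore reached a high enrichment in each list, although most WT peaks there ranked in the lower part by this measure. The added constant weighs most where background is low, as given below for the WT lists, and ranks by the plain ratio were not taken.

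Widths and local background were also examined. The median long-arm peak was 196 and 176.5 bp wide in ctcf-/-, 199 and 188 bp in the WT 48 hpf lists, and 221.5 and 183 bp in WT at 24 hpf. The other chromosomes had medians of 179 and 185 bp in ctcf-/-, 238 and 239 bp in the WT 48 hpf lists, and 256 and 222 bp in WT at 24 hpf. Long-arm peaks were narrower in 5 of 6 lists, by −0.17 ± 0.18 on the log2 scale, with p = 0.0938 in the exact permutation test over 6 libraries and 0.113 after adjustment.

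The local background is the number of fragments that MACS2 expected at the summit, and is given relative to the lowest value in the same list. Its median at long-arm peaks was 2.70 and 3.75 in ctcf-/-, 1.47 and 1.34 in the WT 48 hpf lists, and 1.00 and 1.77 in WT at 24 hpf. The other chromosomes had 2.35 and 4.50 in ctcf-/-, 2.78 and 2.79 in the WT 48 hpf lists, and 1.79 and 3.14 in WT at 24 hpf. The long arm was lower in 5 of 6 lists, by −0.62 ± 0.49 on the log2 scale (exact permutation p = 0.0625, adjusted p = 0.0938). It was −0.22 with a start of the region at 25 Mb (adjusted exact p = 0.562) and −0.14 with the shortened lists (adjusted exact p = 0.6). The median WT 48 hpf peak of the long arm rested on a pileup of 12 and 10 fragments, against 17 and 16 on the other chromosomes, so these peaks were called on fewer fragments above a lower background. In ctcf-/- replicate 1, which again was the exception, the median was 10.5 fragments on the long arm and 9 on the other chromosomes.

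**Figure D3:**
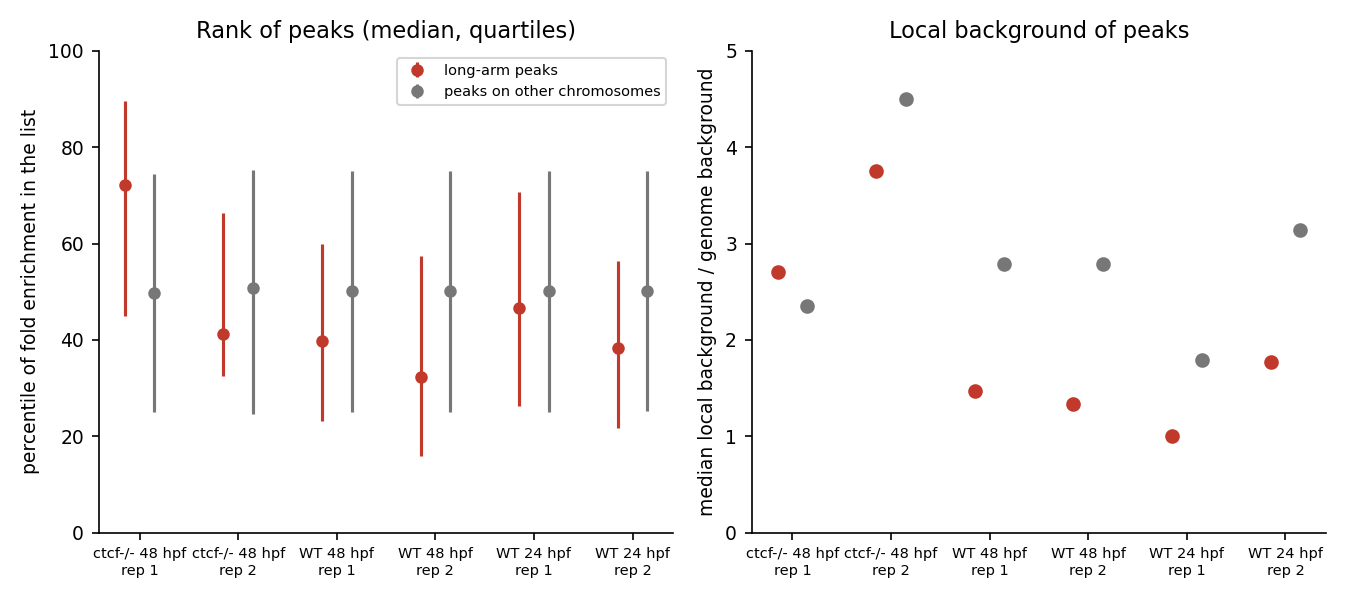
Median percentile of fold enrichment within a list (left) and median relative local background (right) of the peaks of the long arm and of the other chromosomes in each of the 6 libraries. The long arm is lower in 5 of 6 libraries in both plots, and ctcf-/- replicate 1 lies the other way in both, at percentile 72.2 and at a background of 2.70.

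The share of long-arm peaks found in both replicates was below that of the other chromosomes in 5 of 6 lists, a difference that did not pass the test. In ctcf-/-, 8 of 48 peaks (16.7%) and 8 of 14 peaks (57.1%) overlapped a peak of the other replicate, beside 31.1% and 50.1% of all peaks of these lists. In WT at 48 hpf these were 125 of 188 (66.5%) and 123 of 241 (51.0%), beside 77.9% and 73% of all peaks. In WT at 24 hpf they were 125 of 630 (19.8%) and 128 of 193 (66.3%), beside 33.5% and 86.8% of all peaks. The second ctcf-/- list, with 14 long-arm peaks, was the only one in which the share was higher on the long arm. The mean difference from the other chromosomes was −12.3 ± 10.7 percentage points (exact permutation p = 0.0625, adjusted p = 0.0938), and the 2 values of a pair of replicates are not independent of each other. It was −5.09 points with a start at 25 Mb (adjusted exact p = 0.487) and turned to 2.80 points with the shortened lists (adjusted exact p = 0.781).

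Among the 123 WT 48 hpf sites of the long arm, the fold enrichment ranged from 4.54 to 27.8 with a median of 9.37 in replicate 1, and from 3.98 to 24.4 with a median of 9.56 in replicate 2. On the other chromosomes the medians were 11.4 and 11.4. The fold enrichments of both replicates had a Spearman's rho of 0.66 across the long-arm sites and 0.81 across those of the other chromosomes, all from the same libraries. Sites ranking on average in the top decile numbered 3 of 123 (2.44%), against 12.4% on the other chromosomes, and those below the 25th percentile numbered 22 (17.9%), against 10.3%. Summits of the replicates lay within 100 bp of each other in 115 of the 123 sites (93.5%), against 92.7% on the other chromosomes, so the positions of the summits were about as close as elsewhere.

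**Figure D4:**
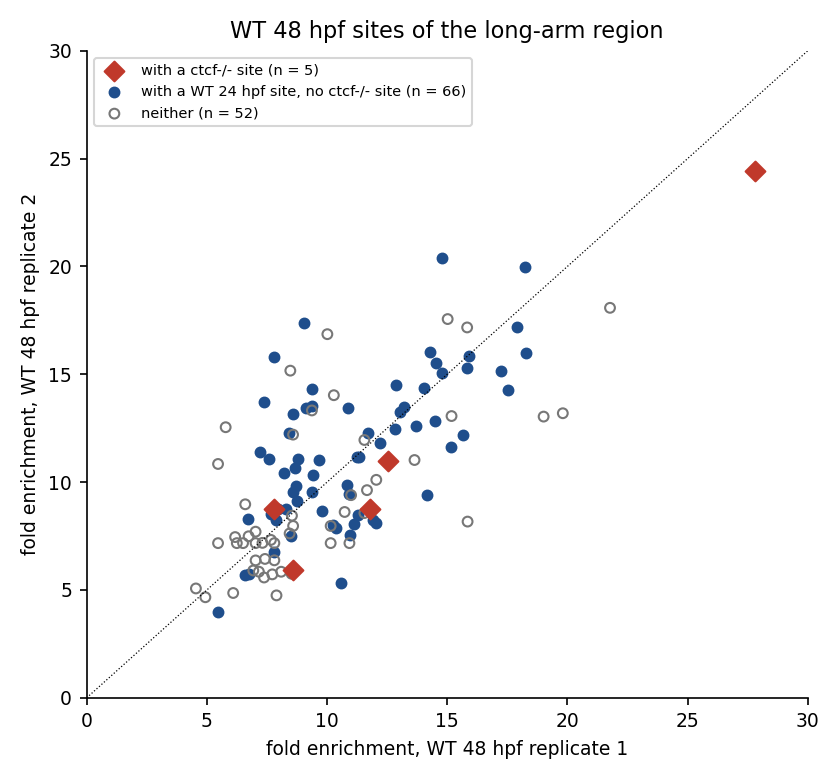
Fold enrichment of the 123 long-arm sites in WT 48 hpf replicate 1 (horizontal axis) and replicate 2 (vertical axis), marked by whether a ctcf-/- site (5 sites), only a WT 24 hpf site (66 sites) or neither (52 sites) overlapped them. Most sites lie in the lower left part, around medians of 9.37 and 9.56, and the site farthest out, at 27.8 and 24.4, is 1 of the 5 with a ctcf-/- site.

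The 5 strongest WT 48 hpf sites of the long arm, by mean percentile, were single sites with a range of behaviours between groups. The first, at chromosome 4, 57548258 to 57548589 bp, was enriched 20.3 and 20.7 times in the ctcf-/- lists, 27.8 and 24.4 in the WT 48 hpf lists and 34.2 and 20.7 in the WT 24 hpf lists. It was at percentile 99.7 and 98.7 in ctcf-/- and 99.5 and 98.2 in WT at 48 hpf. It had the highest fold enrichment of all long-arm peaks in each of the 6 lists.

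The other 4 had no ctcf-/- peak in either replicate, as was the case for 91.7% of all WT 48 hpf sites. The site at 68290704 to 68291021 bp was enriched 21.8 and 18.1 times in WT at 48 hpf, and at 24 hpf a peak in replicate 2 alone, of 15.2. The site at 73525246 to 73525482 bp had 18.2 and 20.0 in the WT 48 hpf lists and 9.28 and 8.94 in WT at 24 hpf. A neighbour within 6 kb of it, at 73519213 to 73519723 bp, had 17.9 and 17.2 in the WT 48 hpf lists and 17.6 and 14.3 in WT at 24 hpf. Lists are not normalized to each other, so these values describe each site within its own list. The fifth, at 37424373 to 37424600 bp, had 18.3 and 16.0 in the WT 48 hpf lists and 31.7 and 7.65 in WT at 24 hpf.

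The 3 weakest WT 48 hpf sites ranged from 3.98 to 5.47 in fold enrichment in that group. The site at 74907457 to 74907820 bp was enriched 4.94 and 4.66 times in WT at 48 hpf and 4.83 times in WT 24 hpf replicate 1 alone. The site at 64254621 to 64254855 bp had 5.47 and 3.98 in the WT 48 hpf lists, and 7.65 and 10.2 in WT at 24 hpf. The site at 76321758 to 76321969 bp had 4.76 in ctcf-/- replicate 1, with no peak in ctcf-/- replicate 2, 4.54 and 5.07 in WT at 48 hpf, and 3.002 in WT 24 hpf replicate 1. In ctcf-/- replicate 1 its local background was 34.8 times the lowest of that list, the highest of any long-arm peak of the list.

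The genotype comparison asked how much of this binding remained in ctcf-/- embryos at 48 hpf. Of the 123 WT 48 hpf sites of the long arm, 5 (4.07%) were overlapped by a ctcf-/- site, beside 3.33% of all WT 48 hpf sites. A ctcf-/- peak of either replicate overlapped 14 (11.4%), against 7.99% on the other chromosomes. The share with a ctcf-/- site was close to that of all sites. On the rest of chromosome 4, 4.47% of WT 48 hpf sites had a ctcf-/- site and 11.9% a ctcf-/- peak of either replicate. Of the 34 ctcf-/- sites there, 12 lay within a single window of 1 Mb, described below. Without ctcf-/- replicate 2, 12 of the 123 (9.76%) were overlapped by a peak of ctcf-/- replicate 1, beside 5.65% of all WT 48 hpf sites. Without ctcf-/- replicate 1, 7 (5.69%) were overlapped by a peak of ctcf-/- replicate 2, beside 6.04% of all. On the other chromosomes, overlapped sites had median WT percentiles of 92.5 and 93.1, against 60.2 and 62.7 for the rest. Weak sites there were overlapped as well, with 89 of 2326 sites (3.83%) below the 25th percentile, against 0.417% from 25 to 50, 0.729% from 50 to 75 and 14.9% from 90 upwards. On the long arm the 5 overlapped sites had medians of 63.7 and 44.5, against 47.0 and 51.5 for the rest. By mean percentile, 1 of the 5 was above 90, 4 lay between 25 and 75 and none lay below 25.

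Of the peaks assigned to numbered chromosomes, 1.86% and 0.860% lay on the long arm in the ctcf-/- lists, against 0.618% and 0.742% in the WT 48 hpf lists. The means were 1.36% ± 0.709 in ctcf-/- and 0.680% ± 0.0876 in WT at 48 hpf (SD, n = 2 each), a difference of 0.681 percentage points. Both ctcf-/- libraries were above both WT 48 hpf libraries, but WT 24 hpf replicate 1, at 0.954%, lay above ctcf-/- replicate 2. For the genotype difference, p was 0.333 in the exact two-sided permutation test, the smallest that 2 libraries against 2 allow. The difference was 0.180 points without ctcf-/- replicate 1 and 1.18 points without ctcf-/- replicate 2, so that its size rested on 1 library. It was 1.38 points with a start at 25 Mb, 1.37 points with −log10 q of at least 10 and 1.55 points with the shortened lists. The lists hold no read counts. The lowest background recovered from them, a relative measure of depth, was 0.134 and at most 0.0604 fragments in ctcf-/-, against 0.281 and 0.255 in the WT 48 hpf lists and 0.700 and 0.176 in WT at 24 hpf. Depth and genotype cannot be told apart in this comparison.

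Overlap was then taken between single lists. Of the 188 long-arm peaks of WT 48 hpf replicate 1, 9.04% were hit by a peak of ctcf-/- replicate 1 and 4.26% by a peak of ctcf-/- replicate 2, beside 4.74% and 4.76% of all peaks of that WT list. Of the 241 long-arm peaks of WT 48 hpf replicate 2, 6.22% and 4.15% were hit in the same order, beside 4.28% and 4.43% of all. The share was above that of all peaks with ctcf-/- replicate 1 and below it with ctcf-/- replicate 2, in both WT lists. On the rest of chromosome 4 the shares were 6.97% and 7.31% for WT 48 hpf replicate 1, and 6.27% and 6.70% for WT 48 hpf replicate 2. The long arm exceeded these only for WT 48 hpf replicate 1 with ctcf-/- replicate 1.

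The ctcf-/- peaks of the long arm were also set against WT peaks. A WT 48 hpf site lay at 12 of the 48 peaks of ctcf-/- replicate 1 (25%) and at 7 of the 14 of ctcf-/- replicate 2, against 50.2% and 85.9% on the other chromosomes. The difference was smaller for a WT 48 hpf peak of either replicate. Such a peak lay at 20 of the 48 (41.7%) and 11 of the 14 (78.6%), against 55.8% and 88.1%. No peak of any of the 4 WT lists lay at 18 of 48 (37.5%) and 2 of 14 (14.3%), against 32.3% and 9.93%, which are shares near those of the other chromosomes. The 18 long-arm peaks of replicate 1 with no WT peak had a median percentile of 66.1 in their list, and the 30 with one had 82.0. In replicate 2 these medians were 40.01 for the 2 peaks without and 45.2 for the 12 with a WT peak. In both lists the long-arm peaks with a WT peak were the higher ranked ones, in replicate 2 by a comparison with only 2 peaks. The same held on the other chromosomes. There the medians with and without a WT peak were 59.6 and 36.5 in replicate 1, and 55.1 and 24.6 in replicate 2.

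The 8 ctcf-/- sites of the long arm were spread along most of the arm, with 6 of them before 65 Mb. Of these, 5 (62.5%) were overlapped by a WT 48 hpf site, beside 94.4% of all ctcf-/- sites. A peak in at least 1 WT 24 hpf list lay at all 8, as at 99.3% of all ctcf-/- sites. A peak in all 6 lists was found at 3, a count that was not made for all ctcf-/- sites. The 3 sites with all 6 lists began at 36113626, 53828757 and 57548252 bp.

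The site at 57548252 to 57548609 bp is the strongest long-arm site described above, and its ctcf-/- summits rested on 66 and 36 fragments. The site at 36113626 to 36114078 bp had a fold enrichment of 17.1 and 9.86 in ctcf-/-, 8.60 and 5.90 in the WT 48 hpf lists, and 15.2 and 6.67 in WT at 24 hpf, with 48 and 16 fragments at the ctcf-/- summits. The site at 53828757 to 53829090 bp had 13.4 and 10.7 in ctcf-/-, 12.5 and 11.0 in the WT 48 hpf lists, and 14.1 and 10.7 in WT at 24 hpf, with 32 and 14 fragments. In ctcf-/- replicate 1 these 3 sites also had the highest local background of the 8, at 17.2, 13.9 and 10.8 times the lowest of the list, while the other 5 had 3.17 to 5.29 times.

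Another 3 sites had a peak in both WT 48 hpf lists or in 1 of them and rested on fewer fragments, with 15 or 16 in ctcf-/- replicate 1 and 7 or 8 in ctcf-/- replicate 2. The site at 36817691 to 36817963 bp had a fold enrichment of 10.1 and 7.82 in ctcf-/- and 7.81 and 8.76 in WT at 48 hpf. The site at 68339685 to 68339906 bp had 11.3 and 7.04 in ctcf-/- and 11.8 and 8.77 in WT at 48 hpf. At 24 hpf both had a peak in replicate 1 alone, of 23.1 and 23.6. The site at 52808017 to 52808388 bp had 11.0 and 7.25 in ctcf-/-, 8.77 in WT 48 hpf replicate 2 and 7.06 in WT 24 hpf replicate 1.

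The site at 71198240 to 71198472 bp had 9.94 and 7.42 in ctcf-/-, 13.01 in WT 48 hpf replicate 1, and 16.3 and 14.5 in WT at 24 hpf. The last, at 36718326 to 36718720 bp, had 14.02 and 9.91 in ctcf-/- and no peak in either WT 48 hpf list, and 12.9 in WT 24 hpf replicate 1. It was the only one of the 8 (12.5%) with no WT 48 hpf peak at all, beside 1.90% of all ctcf-/- sites. It lay within 100 kb of the site at 36817691 bp.

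**Figure D5:**
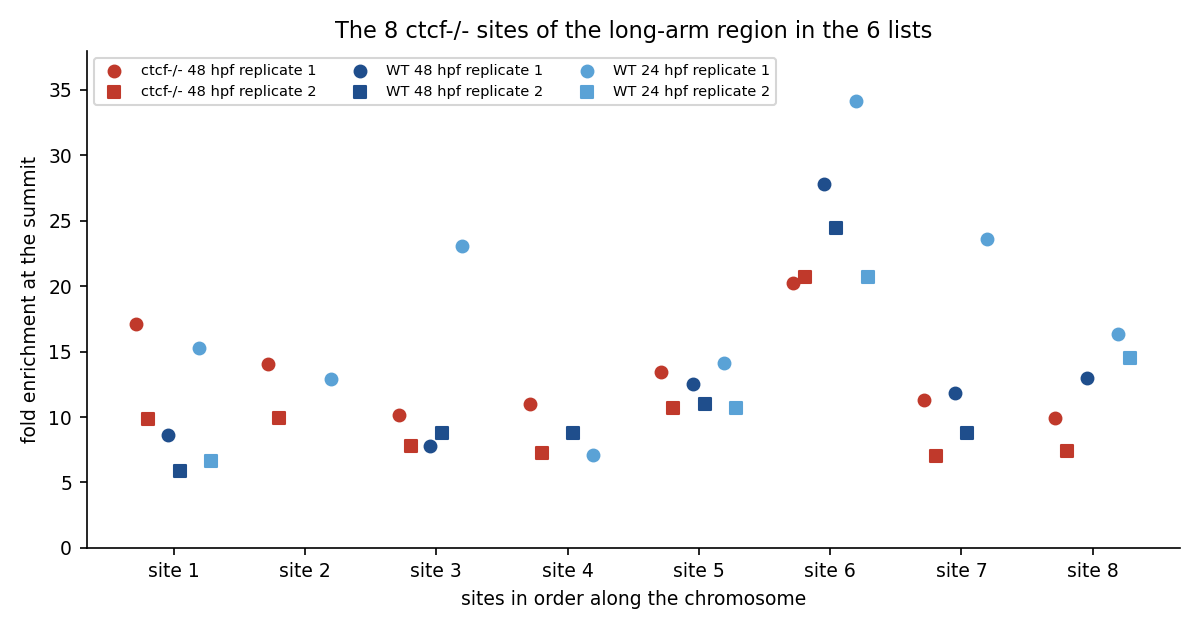
Fold enrichment of the 8 ctcf-/- sites of the long arm in each of the 6 libraries, with an empty place where a library had no peak. The sites are called in both ctcf-/- libraries, 5 of them overlap a WT 48 hpf site, and the strongest of them is also the strongest in WT embryos.

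Stage was compared in WT embryos. The long arm held 0.680% ± 0.0876 of the peaks on numbered chromosomes at 48 hpf and 0.850% ± 0.146 at 24 hpf (SD, n = 2 each), a difference of −0.170 percentage points with p = 0.333 in the exact permutation test, again the smallest p the design allows. The difference was −0.0671 points without WT 24 hpf replicate 1 and −0.274 points without WT 24 hpf replicate 2. The number of sites was nearly the same at both stages, at 123 and 124.

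The overlap of the sites between stages was then counted. Of the 123 WT 48 hpf sites, 69 (56.1%) were overlapped by a WT 24 hpf site, beside 75% of all WT 48 hpf sites, and 11 (8.94%) had no WT 24 hpf peak at all, against 3.40% on the other chromosomes. Without WT 24 hpf replicate 2, the shallower library of its group, 105 (85.4%) were overlapped by a peak of WT 24 hpf replicate 1, beside 94.5% of all. Without WT 24 hpf replicate 1, 76 (61.8%) were overlapped by a peak of replicate 2, beside 76.9% of all. Of the 124 WT 24 hpf sites, 68 (54.8%) were overlapped by a WT 48 hpf site, beside 79.3% of all WT 24 hpf sites, and 24 (19.4%) had no WT 48 hpf peak, against 8.51% on the other chromosomes. No test of these shares was made, as sites of the same libraries are not replicates, and long-arm sites also ranked lower in their lists, as given above.

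Shared sites were the stronger ones in both places. Long-arm WT 48 hpf sites with a WT 24 hpf site had median percentiles of 57.8 and 61.9, and those without had 36.3 and 36.7. On the other chromosomes these medians were 69.3 and 71.3 with a WT 24 hpf site, and 37.1 and 39.9 without one. The share was alike along the arm, at 42 of 75 sites (56.0%) from 65 Mb onwards and 27 of 48 sites (56.2%) before it. Of the 123 sites, 10 had a peak in the WT 48 hpf lists alone, 38 in 3 lists, 66 in 4, 6 in 5 and 3 in all 6. These counts by list were not made for the other chromosomes, so whether they differ there is not known.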

How the data were processed

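CTCF ChIPmentation peak lists of 6 whole-embryo libraries were used, grouped by their labels. Per the labels and methods, the authors aligned reads to GRCz10 (danRer10) with Bowtie2 and called peaks in each library with MACS2 at an FDR of 0.001. The treatment of reads with several alignments and any input control are not given in the sources used here. The deposited fold enrichment is a linear ratio of summit pileup to local background, with the constant given above added to both. The deposited −log10 p and −log10 q are those of the summit. The score column that the authors deposited was not used, and peak positions and summits are as deposited. These values are not comparable between libraries as they stand.

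Pileup and local background were solved from the deposited fold enrichment and −log10 p, and fitted −log10 p within 0.002 in 100% of peaks. A second whole pileup fitted as well in 0.141% to 2.34% of peaks, depending on the library. The lowest background of a list served as its relative depth, and is an upper bound in ctcf-/- replicate 2. Long arm and other chromosomes were compared within each list by exact two-sided sign-flip permutation tests over 6 libraries, and groups by exact permutation tests, with Benjamini-Hochberg adjustment over the 6 sign-flip tests and a threshold of 0.05. Lengths run to the last listed peak end of a chromosome. Shares of sites are descriptions without a test. Named sites are the 5 strongest and 3 weakest WT 48 hpf sites by mean percentile, all ctcf-/- sites, the 3 longest stretches without a WT 48 hpf site, and the windows of 5 Mb with most and fewest sites. The region and these rules were chosen with earlier results of these data known. The alternatives were other thresholds on −log10 q, other overlap rules, other limits of the region, equal list lengths, WT libraries alone, and leaving out each replicate. Sequence motifs and genes were not analysed here, for want of a genome or annotation of this build. Functions were tested on simulated data. Python 3.11.15, numpy 2.4.6, pandas 2.3.3, scipy 1.17.1 and matplotlib 3.10.9 were used.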

Additional observations from a re-analysis of the deposited data

How the results depend on the processing

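The density difference between the long arm and the other chromosomes was negative under all 13 alternatives run, between −3.75 and −1.53 (log2), and −3.75 was reached with the shortened lists described here. No p passed 0.05, which most alternatives could not have done: the smallest unadjusted p is 0.0625 with 5 libraries, 0.333 for 2 libraries against 2 and 0.5 with a block. Leaving out each replicate in turn gave −2.19 to −1.87 for that difference, with adjusted exact permutation p of 0.075 to 0.188. In the WT libraries alone, the smallest p that 4 libraries allow is 0.125. With every list shortened to its 1706 strongest peaks by −log10 q, the difference in percentile turned to 11.3 points (adjusted exact permutation p = 0.438 over 6 libraries). That in replicate overlap turned to 2.80 points (adjusted exact permutation p = 0.781). The long arm then held 38 and 14 ctcf-/- peaks, 1 peak of each WT 48 hpf list, and 4 and 3 WT 24 hpf peaks. The cause was not tested. The shortened lists also gave −4.38 for the density against the rest of chromosome 4, −0.10 for width and −0.14 for local background (log2), and 1.55 points for the genotype difference. With a start at 25 Mb, percentile was −9.36 points, width −0.11, local background −0.22 and replicate overlap −5.09 points, and the genotype difference was 1.38 points. It was 1.37 points with −log10 q of at least 10. Ranked by −log10 q, the percentile difference was −8.28 points, and in WT libraries alone it was −10.8 points, with width at −0.27. Site numbers followed the definition. With −log10 q of at least 10 there were 4 ctcf-/-, 77 WT 48 hpf and 63 WT 24 hpf sites, and 2 and 38 WT 48 hpf sites were overlapped by a ctcf-/- and by a WT 24 hpf site. With a start at 25 Mb there were 20 ctcf-/- and 194 WT 48 hpf sites, with 15 and 120 overlapped. Of the 20, 12 lay within a single window of 1 Mb below the region. With a peak in either replicate there were 54, 304 and 694 sites, with 24 and 212 overlapped. Without 1 replicate, ctcf-/- sites numbered 14 to 48, WT 48 hpf sites 188 to 241, WT 24 hpf sites 193 to 630, sites overlapped by a ctcf-/- site 6 to 12 and by a WT 24 hpf site 76 to 105. The labels do not say whether libraries of the same replicate number share a clutch or batch. The deviations of same-numbered libraries had r of −0.48 (ctcf-/- and WT at 48 hpf) and −0.54 (WT at 48 and 24 hpf) over 25 regions. These values do not settle whether samples were paired. With the replicate number as a block, the genotype difference of 0.681 and the stage difference of −0.170 points had an exact permutation p of 0.5, as they had with crossed pairing, which was added after the data were seen, and neither was called. The alternatives on a CTCF motif were not run. The ctcf-/- counts are small: with 14 long-arm peaks in replicate 2, 1 peak is 7.14% of them.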

Other observations

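Just below the start of the long-arm region, between 25 and 30 Mb, lay 12 ctcf-/- sites, against 8 on the whole of the long arm. All 12 lay within a single window of 1 Mb, which held 22 and 12 ctcf-/- peaks and 29 WT 48 hpf sites. The values given for a start at 25 Mb and for the rest of chromosome 4 include this window. The cluster was noticed after the data were seen and no test was made of it.

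Of the 630 long-arm peaks of WT 24 hpf replicate 1, the longest list, 505 had no peak in WT 24 hpf replicate 2. A WT 48 hpf peak lay at 89 of these (17.6%), against 25.04% of such peaks on the other chromosomes. Their median percentile in the list was 39.4 on the long arm and 39.4 on the other chromosomes.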
